A study of Mus musculus with 3 samples.

Results

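Mx1, Mx2, Rsad2, Cmpk2, Isg15, Isg20, Usp18, Bst2, Xaf1 and Ifi44 are antiviral effector genes of the interferon response. They were taken as the gene probes of the arrays that carry these 10 names, out of 26832 gene symbols on the array, and all 10 were found, on 17 probes. The rule uses the names alone and no measured value. The 10 genes and the gene lists below were, however, chosen with earlier results of these data known. Their counts are therefore a description and not independent of the data. Their roles are trapping of virus particles, attack on viral RNA, protein modification by ISG15, and cell death.

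Type I interferon is secreted by macrophages after lipopolysaccharide (LPS) engages Toll-like receptor 4, and it acts back on the cells through its receptor, the Janus kinases and a complex of transcription factors. That complex binds interferon-stimulated response elements in the promoters of many genes, of which these are among the best known. Products of such genes limit viruses, and that of Usp18 also damps the type I interferon receptor.

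RNA of RAW 264.7 cells, an established mouse macrophage line, was measured on 3 one-colour Agilent arrays, with 1 array per condition. In the LPS condition, cells seeded at 500000 per well were stimulated with LPS at 50 ng/mL and had no lactobacilli. For CRL1505 + LPS the cells were first kept with Lacticaseibacillus rhamnosus CRL1505 at 50000000 cells/mL for 24 h and washed, and for CRL1506 + LPS with Lactiplantibacillus plantarum CRL1506 at the same dose and time, before the same LPS. The sources differ on how long LPS was left on, which is 12 h in the study's design and methods and 3 h in the sample descriptions. All 3 conditions share the line and the LPS, and unstimulated cells were not analysed here, so every ratio compares LPS-treated cells with LPS-treated cells. The line is a single tumour-derived line with no second line or primary cell beside it on these arrays.

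Each condition has 1 array, so replicate error could not be estimated, no test was run, and the number of arrays limits the precision. A level is the log2 intensity of a probe relative to its array's 75th percentile, a ratio is the difference of 2 levels, and a gene is called different at 2-fold or more. As a yardstick that is not a replicate error, the probes of a gene differed in their log2 ratio by a median SD of 0.23 for CRL1505 + LPS against LPS, 0.21 for CRL1506 + LPS against LPS and 0.32 between the strains. Repeated spots of a probe differed by 0.04 to 0.05. Because RNA was taken from whole cultures, fewer cells of a type and less RNA per cell cannot be told apart.

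The CRL1505 + LPS array stood apart from the other two. It was read on another slide and in another scan, its 75th percentile was at an intensity of 517.0 against 743.1 for LPS and 697.9 for CRL1506 + LPS, and 48.5% of its gene spots were well above background against 54.5% and 55.3%. Slide, scan and CRL1505 therefore cannot be told apart. The cells carried the markers of their label, since 8 of 8 macrophage markers were well above background on all 3 arrays, while Cd3g, Cd8a, Cd79a, Pdgfra, Cdh1, Krt8 and Krt18 were above it on none. Of the markers of other cell types, Cd3e, Lck, Ms4a1 and Pax5 were well above background on all 3 arrays, and Epcam on all but CRL1505 + LPS. The summed level of the macrophage markers was 9.44 with LPS, 9.39 with CRL1505 + LPS and 9.14 with CRL1506 + LPS. Within that list Adgre1 and Fcgr1 were 4.83-fold and 5.28-fold over LPS with CRL1505, while the log2 ratio of Csf1r was -1.47. The summed level of 4 T cell markers was 2.11, 3.26 and 2.51 in the same order of arrays, and within it Lck was 2.74-fold over LPS with CRL1505. Cd3e had levels of 0.23, 0.06 and 0.26, and Cd3g and Cd8a were not well above background. The B cell markers summed to between -2.49 and -1.84 and the epithelial markers to between -3.83 and -1.67. The summed level of 4 fibroblast markers lay near the background, at -3.01, -2.05 and -1.23 in the same order. Col1a1 and Dcn were well above background only with CRL1506 + LPS. Col1a2 was so with both strains but not with LPS, and was higher with CRL1505 + LPS, at -2.50, than with CRL1506 + LPS, at -3.89. The part of the markers of other cell types in the results was not tested.

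Promoter sequence was held for 7 of the 10 genes, from RefSeq on GRCm38.p6, as 250 bases before to 50 bases after the start site, with 3 start sites for Isg20. Mx1, Mx2 and Usp18 had no entry. The promoters are shown because the interferon-stimulated response element is the sequence by which the interferon complex is known to find such genes. The letters GAAANNGAA, the core of that element, were present on either strand in the promoters of Isg15, Bst2, Rsad2 and Ifi44, which is 4 of 7 genes. Counted by promoter, this was 4 of 9, beside 8.56% of all 32851 promoters. The shorter letters AANNGAAA, the core bound by the IRF family, were searched after the promoters had been looked at. They were present in 6 of 7 genes, all but Cmpk2, and in 6 of the 9 promoters, beside 23.9% of all promoters. Matches of these motifs overlap each other where the element is repeated. The palindromic gamma-activated site TTCNNNGAA was present in Isg20 and Bst2 and in 8.30% of all promoters, and the NF-kappaB letters GGANTTTCC in Isg15 and in 1.25%. A match is a description of letters and not evidence of a bound site. The 160 bases before the start site follow for the 4 genes that hold GAAANNGAA, 5′ to 3′ on the strand of the gene, with matches to GAAANNGAA or AANNGAAA on either strand in capitals.
Isg15, chr4:156200819-156200978, minus strand: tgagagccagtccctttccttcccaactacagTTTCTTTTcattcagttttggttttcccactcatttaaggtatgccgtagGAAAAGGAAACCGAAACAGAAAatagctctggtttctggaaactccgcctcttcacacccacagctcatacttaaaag
Bst2, chr8:71537473-71537632, minus strand: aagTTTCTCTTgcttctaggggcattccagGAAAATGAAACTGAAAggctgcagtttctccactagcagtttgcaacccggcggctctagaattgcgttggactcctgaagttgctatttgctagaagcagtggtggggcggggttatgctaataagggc
Rsad2, chr12:26456453-26456612, minus strand: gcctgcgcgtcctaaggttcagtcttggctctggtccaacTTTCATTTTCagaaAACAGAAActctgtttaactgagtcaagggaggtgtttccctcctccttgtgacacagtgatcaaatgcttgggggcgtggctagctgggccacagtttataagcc
Ifi44, chr3:151749911-151750070, minus strand: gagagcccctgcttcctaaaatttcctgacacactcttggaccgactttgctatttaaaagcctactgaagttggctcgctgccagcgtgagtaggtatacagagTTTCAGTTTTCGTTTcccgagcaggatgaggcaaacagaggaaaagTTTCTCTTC

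In Isg15 the element was repeated in tandem, with matches of GAAANNGAA that begin 78, 72 and 66 bases before the start site. Bst2 held the same kind of repeat farther out, at 130 and 124 bases. Rsad2 held its match on the strand opposite to the gene at 119 bases, followed by an AANNGAAA match on the strand of the gene at 106 bases. In Ifi44 the match of GAAANNGAA began 3 bases before the start site and ran across it, so only its first letters are printed.

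**Figure D1:**
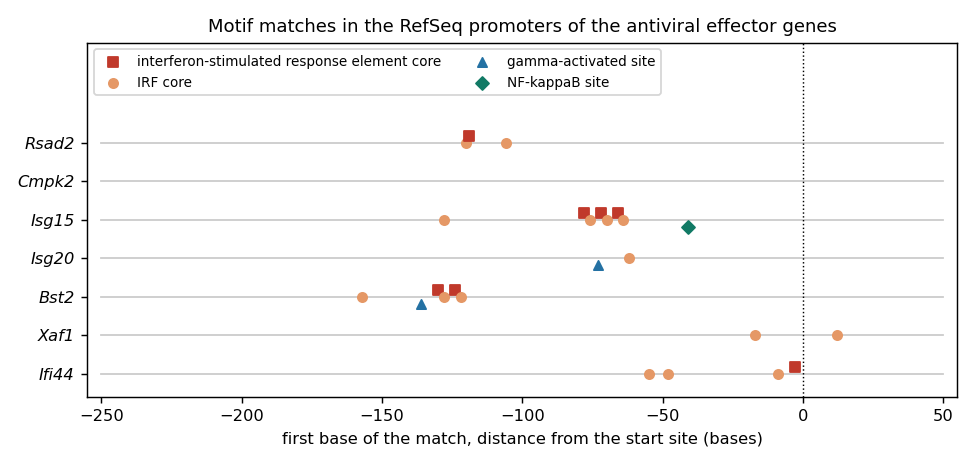
Position of motif matches in the RefSeq promoters of 7 antiviral effector genes, with the distance of the first base of each match from the start site in bases on the x axis and 1 promoter per line (for Isg20, the promoter of its 3 that holds a match). Squares mark GAAANNGAA, circles AANNGAAA, triangles TTCNNNGAA and the diamond GGANTTTCC; Isg15 and Bst2 show repeated squares and Cmpk2 shows no match.

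All 10 genes were at least 2-fold higher in CRL1505 + LPS than in LPS, with log2 ratios from 1.30 for Mx2 to 2.77 for Isg20 and a median of 2.02. Of the 15608 genes that could be compared, 9.92% passed that line upwards and 8.41% passed it downwards, and the median log2 ratio of all of them was 0.01. In CRL1506 + LPS, 4 of the 10 genes, Mx1, Rsad2, Cmpk2 and Bst2, were at least 2-fold higher than in LPS, against 5.67% of 16284 genes higher and 3.52% lower. The other 6 were above 0 but under 2-fold, the members' median log2 ratio was 0.86, and that of all genes was -0.06. None of the 10 was lower than in LPS with either strain. Both comparisons use the same LPS array, so they are given side by side and not as independent results.

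**Figure D2:**
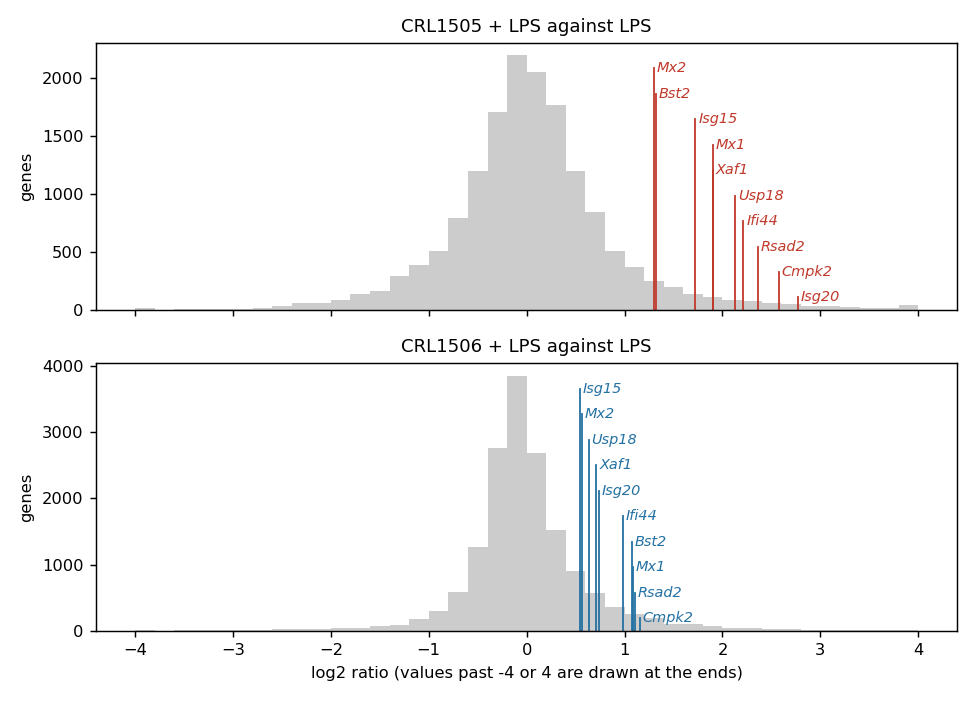
Histograms of the log2 ratio of all genes that could be compared, CRL1505 + LPS against LPS above and CRL1506 + LPS against LPS below, with the number of genes per bin of the log2 ratio on the y axis. Coloured lines mark the antiviral effector genes, and their height has no meaning; all 10 lie past 1 in the upper panel, and 4 of 10 do so in the lower.

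Mx1 and Mx2 are dynamin-like GTPases that block the nucleocapsids of viruses, Mx1 in the nucleus and Mx2 in the cytoplasm of mouse cells. RefSeq places both on chromosome 16, Mx1 at chr16:97447035-97462906 and Mx2 at chr16:97536081-97560901 on GRCm38.p6, and annotates both as transcribed pseudogenes in that reference strain. Whether RAW 264.7 cells make working Mx proteins was not tested. The level of Mx1 was 3.89 in LPS, 5.79 in CRL1505 + LPS and 4.97 in CRL1506 + LPS. It was thus highest with CRL1505 and lowest with LPS alone, 3.73-fold over LPS with CRL1505 and 2.12-fold with CRL1506. A second Mx1 probe, nearer the 5′ end of the transcript, gave levels of 1.53, 3.37 and 2.95 in the same order and the same order of conditions, at 3.59-fold and 2.68-fold. For Mx2 the levels were 4.37, 5.67 and 4.93, which is 2.46-fold over LPS with CRL1505 and 1.47-fold with CRL1506. The lowest ratio with CRL1505 among the 10 genes was that of Mx2. Another Mx2 probe, designed on the transcript ENSMUST00000191103, was well above background only with CRL1506 + LPS, at least 6.60-fold over LPS, with an intensity of 206.7 against 24.5 in LPS and 23.4 in CRL1505 + LPS. The probes of Mx1 and Mx2 shared at most 8 bases in a row.

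Rsad2 encodes viperin, a radical SAM enzyme that turns CTP into a chain terminator of viral RNA polymerases. Cmpk2 encodes a mitochondrial nucleotide kinase. The genes are neighbours on chromosome 12, Rsad2 at chr12:26442743-26456452 on the minus strand and Cmpk2 at chr12:26469117-26479837 on the plus strand, with 12664 bases between them. The level of Rsad2 was 6.04 in LPS, 8.40 in CRL1505 + LPS and 7.14 in CRL1506 + LPS. That is 5.13-fold over LPS with CRL1505 and 2.15-fold with CRL1506. A second Rsad2 probe read 3.90, 6.51 and 5.48, at 6.07-fold and 2.98-fold. Cmpk2 had levels of 4.92, 7.49 and 6.07, which is 5.95-fold and 2.22-fold. Among the 10 genes Cmpk2 had the highest ratio with CRL1506 and the next to highest with CRL1505. It ranked 241 of 15608 genes with CRL1505 and 721 of 16284 with CRL1506, and Rsad2 ranked 318 and 783.

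Isg15 encodes a ubiquitin-like protein that is joined to newly made proteins, and Usp18 the protease that takes it off again and that also damps the type I interferon receptor. Isg15 lies at chr4:156199424-156200818 and Usp18 at chr6:121245906-121270917. The level of Isg15 was 6.82 in LPS, 8.54 in CRL1505 + LPS and 7.36 in CRL1506 + LPS. It was 3.30-fold over LPS with CRL1505 and 1.46-fold with CRL1506, the smallest of the 10 ratios with that strain. Usp18 read 4.75, 6.88 and 5.38, which is 4.38-fold and 1.55-fold. Both genes were therefore past 2-fold with CRL1505 and under it with CRL1506. No Isg15 spot was saturated on any array.

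The rest of the ISG15 pathway followed the same order of conditions. Of the 6 genes of the conjugation list, which holds Isg15 and Usp18 too, 6 were at least 2-fold higher with CRL1505 and 0 with CRL1506. The shares of all genes at least 2-fold higher were 9.92% and 5.67%. The median log2 ratios of the list were 1.78 and 0.59. Uba7, the activating enzyme, was 2.89-fold and 1.90-fold over LPS. Ube2l6, the conjugating enzyme, was 3.56-fold and 1.26-fold. The ligase Herc6 was 5.29-fold and 1.72-fold over LPS, and the ligase Trim25, which also acts on the RNA sensor RIG-I, was 2.05-fold and 1.24-fold.

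Isg20 encodes an exonuclease that degrades single-stranded RNA, and it lies at chr7:78913396-78920396. Its level was 3.34 in LPS, 6.11 in CRL1505 + LPS and 4.07 in CRL1506 + LPS. The CRL1505 value was far above both others, at 6.83-fold over LPS, against 1.66-fold with CRL1506. A second probe, on another transcript of the gene, read 1.34, 4.27 and 1.85, at 7.64-fold and 1.42-fold. With CRL1505 Isg20 had the highest ratio of the 10 genes, rank 189 of 15608, and its probes shared at most 6 bases in a row.

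Bst2 encodes tetherin, a membrane protein that holds budding enveloped viruses on the cell surface, and it lies at chr8:71534255-71537472. Its level was 4.72 in LPS, 6.04 in CRL1505 + LPS and 5.80 in CRL1506 + LPS. Bst2 was 2.50-fold over LPS with CRL1505 and 2.11-fold with CRL1506, so that both strains were past 2-fold and close to each other. The raw intensity was 19629 in LPS, 34087 in CRL1505 + LPS and 38852 in CRL1506 + LPS, so the order of the strains turned with the scaling.

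Xaf1 encodes a protein that opposes the caspase inhibitor XIAP, and Ifi44 an interferon-induced cytoplasmic protein. Xaf1 lies at chr11:72301461-72313733 and Ifi44 at chr3:151730922-151749910. The level of Xaf1 was 2.73 in LPS, 4.63 in CRL1505 + LPS and 3.44 in CRL1506 + LPS, which is 3.74-fold and 1.64-fold over LPS. For Ifi44 the levels were 2.49, 4.71 and 3.48, which is 4.63-fold and 1.98-fold, so that Ifi44 with CRL1506 lay just under the 2-fold line and Bst2, at 2.11-fold, was the called gene closest above it. Its neighbour Ifi44l, 8826 bases away, was 6.10-fold and 3.12-fold over LPS.

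Dimmer probes of Xaf1 and Ifi44 gave another order of the strains. An Ifi44 probe on the transcript ENSMUST00000133888 read -1.16 in LPS, -0.69 in CRL1505 + LPS and 0.34 in CRL1506 + LPS, which is 1.39-fold and 2.83-fold over LPS. A dim Xaf1 probe read -3.27, -2.04 and -1.58, at 2.35-fold and 3.23-fold, and its spot on the CRL1506 + LPS array was uneven. The third Xaf1 probe was not well above background in LPS and gave at least 1.38-fold and at least 1.69-fold. In these probes, as in the dim Mx2 probe, CRL1506 + LPS was the highest of the 3 arrays, unlike in the brightest probe of the same genes. Among all probes well above background on every array, the 6090 dimmest had a median log2 ratio of -0.25 between CRL1505 + LPS and CRL1506 + LPS and the 6090 brightest one of 0.22. For CRL1506 + LPS against LPS these medians were 0.13 and -0.11. The 6090 dimmest held 1 member probe, the dim Xaf1 probe. The Ifi44 probe lay among the 6090 next brighter ones, where the medians were -0.08 between the strains and -0.004 for CRL1506 + LPS against LPS. The dim Mx2 probe and the third Xaf1 probe were not well above background on every array and lay outside these groups. The part of brightness in the ratios of the dim probes of Xaf1, Ifi44 and Mx2 was not tested.

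**Figure D3:**
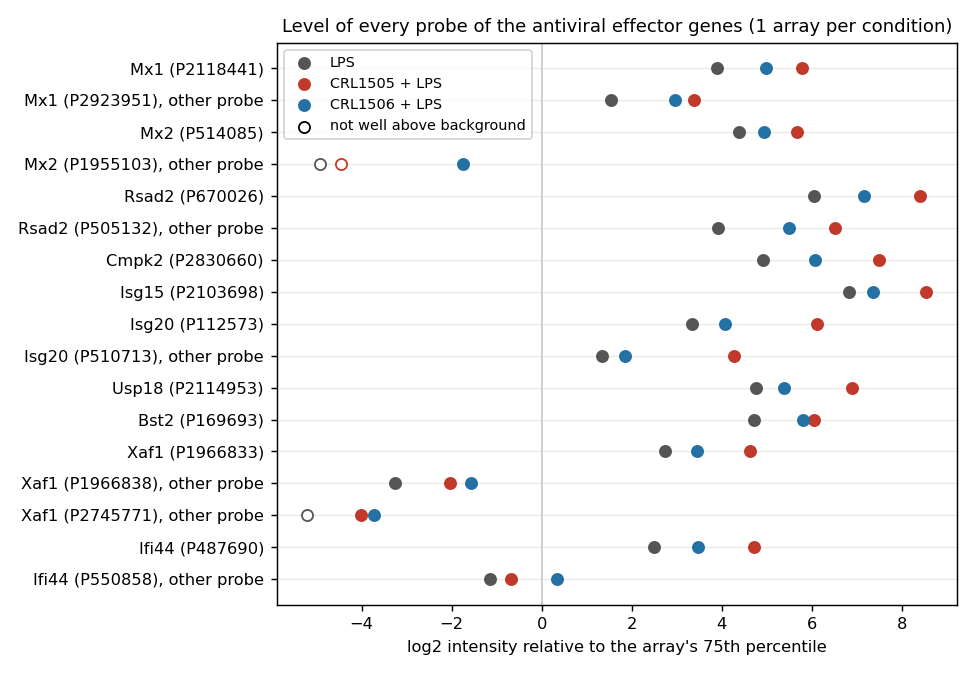
Level of each of the 17 probes on the 3 arrays, as log2 intensity relative to the array's 75th percentile, with open circles for spots that were not well above background. The brightest probe of each gene is listed first and was used for it; in 10 of 10 of these the CRL1505 + LPS point lies farthest right, while the dim probes of Mx2, Xaf1 and Ifi44 have CRL1506 + LPS farthest right.

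The strains were then set directly against each other, each gene by its brightest probe. At least 2-fold higher in CRL1505 + LPS than in CRL1506 + LPS were 7 of the 10 genes, and none was lower. Of 15784 genes compared, 9.02% passed that line upwards and 7.46% passed it downwards. The fold between the strains was 4.10 for Isg20, 2.83 for Usp18, 2.68 for Cmpk2, 2.38 for Rsad2, 2.34 for Ifi44, 2.29 for Xaf1 and 2.26 for Isg15, which on the log2 scale runs from 2.04 to 1.18. Isg20 stood apart from the next gene by more than the spread of 0.32 (log2) between probes, whereas the 6 genes from Usp18 to Isg15 lay within that spread of each other. Mx1 at a log2 ratio of 0.82 and Mx2 at 0.74 were under 2-fold but above the spread. Bst2, at 0.24, was within it. Dimmer probes went the other way for Ifi44, at a log2 ratio of -1.03, Xaf1, at -0.46 and -0.30, and Mx2, at most -2.37. The other probes of Mx1, Rsad2 and Isg20 gave 0.42, 1.03 and 2.43. Another scaling moved several genes across the line. The count ran from 1 with the spike-in shift to 9 with the median shift, and was 3 with quantile normalization and 4 in the deposited table, and Isg20 was the only gene past 2-fold under all of 7 other scalings. The share of all genes past 2-fold under the other scalings is not given, here or below, so these counts have no such share beside them. Bst2 turned sign between scalings, from -0.28 with the spike-in shift to 0.74 with the median shift.

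**Figure D4:**
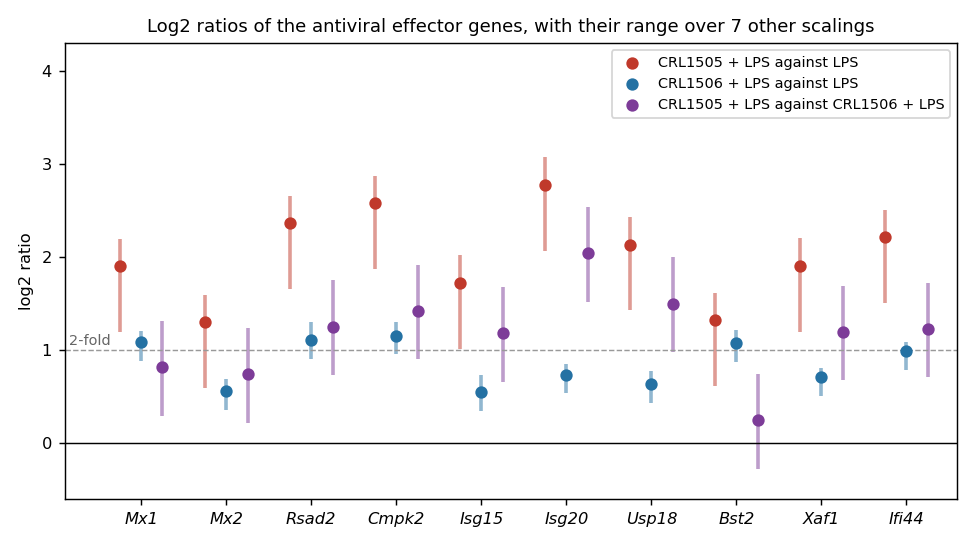
Log2 ratios of the 10 genes, with points for the main setting and vertical lines for the range over 7 other scalings; the dashed line marks 2-fold. With CRL1505 against LPS 8 of 10 genes stay above the dashed line throughout, Mx2 and Bst2 reach down to 0.59 and 0.61, and the Bst2 line between the strains crosses 0.

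The scalings also bear on the comparisons with LPS. With CRL1505 + LPS, 8 of the 10 genes were past 2-fold under all 7 scalings, and Mx2 and Bst2 fell under it with the spike-in shift. With CRL1506 + LPS, all 10 were above 0 under all 7, but none stayed past 2-fold throughout, since the median shift and the spike-in shift left 0 genes past the line and the other 5 scalings left 5. These shifts moved all genes as well. The median log2 ratio of all genes was 0.33, -0.26 and 0.57 with the median shift, for CRL1505 + LPS against LPS, CRL1506 + LPS against LPS and CRL1505 + LPS against CRL1506 + LPS. It was -0.68, -0.25 and -0.49 with the spike-in shift. The 75th percentile over detected probes moved the first to -0.10 and the last to -0.17, and the other scalings moved none by over 0.1. Relative to the median of all genes, the members' median lay 1.85 to 2.01 higher with CRL1505, 0.92 to 1.02 higher with CRL1506 and 0.95 to 1.18 higher between the strains.

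The type I interferon pathway upstream of these genes was measured on the same arrays. Ifnb1, which encodes interferon beta, was 11.0-fold over LPS with CRL1505 and 4.97-fold with CRL1506, at levels of 1.61 in LPS, 5.08 in CRL1505 + LPS and 3.93 in CRL1506 + LPS. Ifna4 was above background on no array. Of 10 genes of the signalling list that could be compared, 3 were at least 2-fold higher with CRL1505 and 2 with CRL1506. The shares of all genes at least 2-fold higher were 9.92% and 5.67%. The median log2 ratios of the list were 0.48 and 0.01, and 0 were 2-fold lower. Irf7, the factor that amplifies interferon production, was 3.73-fold and 1.83-fold over LPS. Of the complex that binds the response element, Stat2 was 2.96-fold and 1.44-fold and the log2 ratio of Irf9 was 0.42 and -0.16. The receptor subunit Ifnar1 was 1.37-fold over LPS with CRL1505 and 2.59-fold with CRL1506.

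Other interferon-stimulated antiviral genes were counted in the same way. Of 21 genes, 18 were at least 2-fold higher with CRL1505 and 4 with CRL1506, beside 9.92% and 5.67% of all genes, 0 were 2-fold lower with either, and the median log2 ratios were 1.73 and 0.52. Ifit2 and Ifit3, of the antiviral IFIT family, were 7.07-fold and 6.54-fold over LPS with CRL1505 and 1.92-fold and 2.39-fold with CRL1506. Oas2, an oligoadenylate synthetase, was 4.58-fold and 2.85-fold, and Oasl2 was 4.50-fold and 2.38-fold. The genes under 2-fold with CRL1505, named after their values were seen, were Ifitm3, Eif2ak2 and Zc3hav1. Gbp2, also named after its values were seen, was 4.43-fold over LPS with CRL1505, and its log2 ratio with CRL1506 was -0.31.

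**Figure D5:**
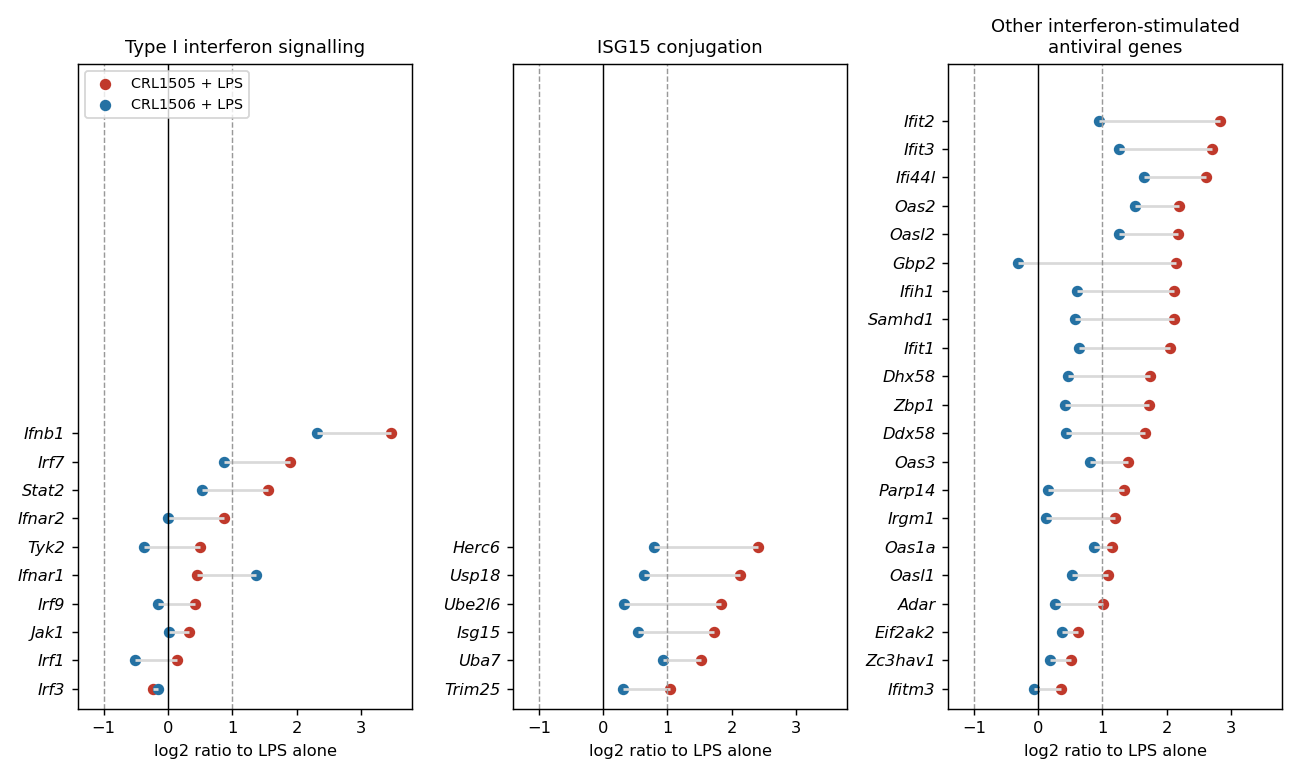
Log2 ratio to LPS alone of each gene of 3 lists that could be compared, red for CRL1505 + LPS and blue for CRL1506 + LPS, with dashed lines at 2-fold in either direction. In the ISG15 conjugation list 6 of 6 red points and 0 of 6 blue points lie past the line, and in the third list 18 and 4 of 21. Of all genes, 9.92% and 5.67% lie past it upwards.

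The genes next to the 10 on the chromosome were compared too. Of 17 such neighbours that are not members, 9 could be compared with CRL1505 and 10 with CRL1506, and 3 in each were at least 2-fold higher, beside 9.92% and 5.67% of all genes. With CRL1505 these were Ifi44l and, by lower bounds on the log2 ratio of 1.09 and 1.04, Ccdc194 next to Bst2 and Fam3b between Mx1 and Mx2. With CRL1506 they were Ifi44l and, by lower bounds of 1.20 and 2.91, Ccdc194 and Adgrl4 next to Ifi44. The median log2 ratios were 0.50 and 0.57, bounds included. With CRL1505 the log2 ratio of Slc13a5, -0.035, was an upper bound, since LPS was the bright side. Ifi44l was the only called neighbour that was well above background on both arrays of its comparison. Ccdc194, Fam3b and Adgrl4 could be compared only because they were bright on the array of the strain. These counts and medians are thus partly set by the filter and are not read as a result about the neighbours. None of the neighbours was at least 2-fold lower.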

How the data were processed

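RNA of 3 RAW 264.7 cultures, 1 per condition, was measured on SurePrint G3 Mouse GE 8x60K arrays. The authors extracted each scan with Agilent Feature Extraction. The deposited intensities (processed signal) are corrected with a fitted background surface, on 100% of gene spots, and not normalized between arrays. The file headers give version 12.0.3.1 of that software. The study's methods give another version of that software, and name GeneSpring and limma. Probes are annotated on mm9. A processed table of log2 values from the authors has equal array medians of 6.86. It differed by a median of 0.05 to 0.06 from values normexp-corrected and quantile-normalized here, and how it was made is not given in the sources used here.

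Here log2 intensity was taken over 59305 gene spots per array and the array's 75th percentile was subtracted. Outlier spots were left out, spots of a probe were averaged, and a gene took its brightest probe. A ratio with 1 dim side (not well above background) is a lower bound, namely the bright level over the higher of that array's lowest level well above background and the dim level. Where both sides were dim no ratio was given. A gene was called at 2-fold. Python 3.11.15, pandas 2.3.3, R 4.3.3 and limma 3.58.1 were used, and the scripts were tested on simulated data. The 14 alternatives were 7 scalings or sources (median shift, quantile, cyclic loess, 75th percentile of detected probes, spike-in shift, normexp with offset 50 then quantile, the deposited table), no dim filter, detected probes only, mean over probes, outliers kept, spots with an uneven pixel signal (over 0.2 log2) left out, and thresholds of 1.5-fold and 4-fold. Members and lists were chosen with earlier results of these data known. Of each list, whole counts were given and at most 5 genes past 2-fold were named by size, plus Ifnb1, Stat2, Irf9 and Irf7. Some genes of the lists are not reported here and are left out of their counts. Of the probe sequences, only the count of bases that probes share is reported.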

Additional observations from a re-analysis of the deposited data

How the results depend on the processing

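Leaving out a replicate could not be done with 1 array per condition. No paired analysis was possible because each condition has 1 array. Of 360 log2 ratios of single genes under the alternatives, 355 were above 0 and 5 below, and 305 differed from the main value by less than the spread between probes. The 5 were 4 values of Bst2 between the strains and 1 of Mx2. Of 78 counts and medians of the members, 17 moved and 0 reversed. For CRL1505 + LPS against LPS the median was 2.31 with the median shift and 1.31 with the spike-in shift, and the count was 5 at a 4-fold threshold. For CRL1506 + LPS against LPS the count was 0 with the median shift, the spike-in shift and the 4-fold threshold, 8 at the 1.5-fold threshold and 7 with the mean over probes, where the median was 1.20. Between the strains the median was 1.71 with the median shift, 0.69 with the spike-in shift and 0.88 with the mean over probes. That count was 3 with quantile normalization, 1 with the spike-in shift, 4 with normexp and in the deposited table, and 1 at the 4-fold threshold. The shares of all genes given above hold for the main setting at 2-fold only, so the counts under the alternatives have no share beside them. With the mean over probes, dim probes enter with equal weight, and the log2 ratio of Mx2 between the strains was -0.99, that of Xaf1 0.15 and that of Ifi44 0.10. The cause of these and of the other moves was not tested. Signal over background limited 2 of the 17 probes, of Mx2 and Xaf1, to bounds.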
